A study of Mus musculus with 11 samples.

Results

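Thymic epithelial cells of NOD mice with both copies of Aire carrying the R249C variant (R249C/R249C) were compared with those of NOD mice with 1 variant copy (WT/R249C). The 6 libraries compared, 3 per genotype, are those of the 11 in the series whose columns in the count table carry the word trimmed and whose title gives 1 of these genotypes. The mice were 4 to 8 weeks old. Libraries whose columns carry the word trimmed are called batch A here and the others batch B, a grouping by column name. NOD is an inbred strain that develops autoimmune diabetes without treatment. Both groups carry the variant, so no group without it enters the test, and the comparison asks what differs when the second copy is also variant. WT/WT replicate 1, the only other library of batch A, is given beside some values as a single library. Per the labels, thymus was digested, CD45-bearing leukocytes were removed with magnetic beads, cells were sorted for EpCAM, an epithelial surface protein, and a low-input kit made the libraries. The titles call the libraries biological replicates, but the labels do not say how many mice each one holds, or their sex. Every p-value therefore measures the spread between libraries. Each library held both Xist and Y-linked transcripts, as given below.

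Aire is a nuclear protein of mature medullary thymic epithelial cells, where it lets many genes of peripheral tissues be transcribed so that developing T cells meet their products in the thymus. T cells that bind these products strongly are deleted or become regulatory T cells. Without working Aire, tissue-restricted genes fall in these cells and several organs are attacked. Aire acts in large complexes with topoisomerases, chromatin readers and transcription elongation factors, and many of its dominant missense variants lie in the SAND domain or the first PHD finger. The SAND domain holds R249C, an exchange of arginine for cysteine.

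The codon that the variant changes is shown to place the difference between the genotypes within Aire. In the GENCODE vM21 annotation of build GRCm38, the R249C codon, in transcript Aire-204 of 552 codons, lies in exon 6 of 14 on the minus strand of chromosome 10, at chr10:78039988-78039990. All 11 annotated coding transcripts that reach this codon encode arginine there. The coding bases from codon 234 to codon 264, at chr10:78039943-78040035, are given 5′ to 3′ with the reference bases of the R249C codon in capitals.
Aire-204: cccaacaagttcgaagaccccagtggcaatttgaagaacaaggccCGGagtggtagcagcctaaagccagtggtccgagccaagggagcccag
The files were made on build mm39 and hold counts per gene, so no library's base at this codon was read here, and the genotypes are those of the labels.

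Total counts ran from 91946272 to 112404478 in the R249C/R249C libraries and from 60560348 to 142186501 in the WT/R249C libraries. Levels are given as CPM, counts scaled to the same total in every library. WT/R249C replicate 3 stood apart: over the 10875 genes tested with a mean of at least 10 CPM, the median absolute difference between 2 libraries was 0.58 to 0.68 on the log2 scale in the 5 pairs that held it. It was 0.34 to 0.46 in the 4 other pairs of the same genotype and 0.30 to 0.42 in the 6 other pairs that crossed genotypes. The pair with the smallest difference, R249C/R249C replicate 1 and WT/R249C replicate 1, crossed genotypes. WT/R249C replicate 3 was also the library with the fewest counts. At equal depth, thinned to 60560348 counts, 27299, 25427 and 24937 genes had at least 1 count in R249C/R249C replicates 1 to 3, and 30088, 27891 and 22101 in WT/R249C replicates 1 to 3. The groups overlapped, with WT/R249C libraries both highest and lowest. The means were 25888 ± 1247 and 26694 ± 4126 (SD, n = 3 each), a difference of -806 with an exact two-sided permutation p of 0.9, where 3 against 3 libraries cannot go below 0.1. Without WT/R249C replicate 3 the difference was -3102 (exact p = 0.2, the smallest possible), and without WT/R249C replicate 1 it was 892.

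**Figure D1:**
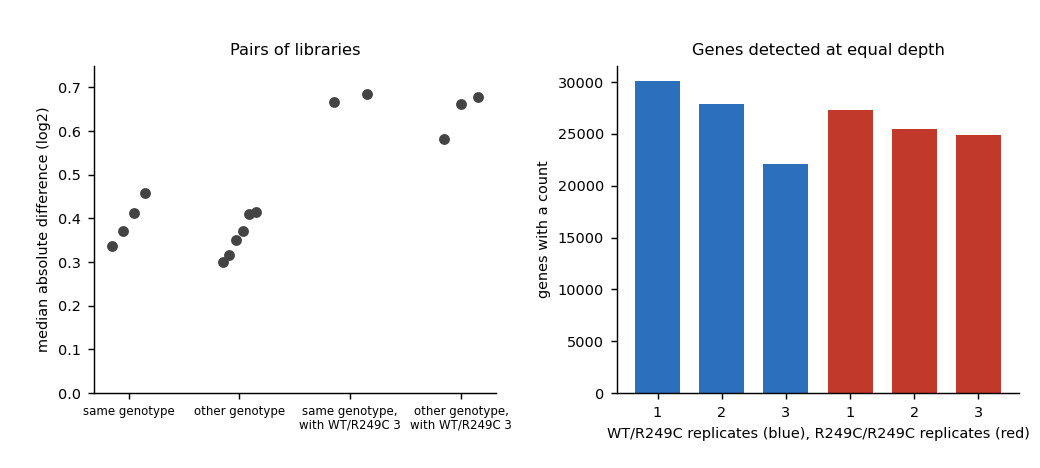
Left, median absolute log2 difference between the 15 pairs of libraries over 10875 genes, 1 point per pair, split by genotype and by whether WT/R249C replicate 3 is in the pair. Right, bars with genes that had at least 1 count after thinning each library to 60560348 counts. Pairs with WT/R249C replicate 3 lie above all others, and pairs across genotypes reach no higher than pairs within a genotype.

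No gene passed the test between the genotypes. The edgeR quasi-likelihood test called 0 of 23695 genes at an adjusted p under 0.05 (0.0% higher in R249C/R249C and 0.0% lower), and the smallest adjusted p was 1. At an unadjusted p under 0.05 stood 120 genes with the higher fit in R249C/R249C (0.506%) and 136 with the lower (0.574%). Together they were 1.08% of the genes tested, below the share of 0.05 that evenly spread p-values would give. The libraries of the genotypes did not overlap in 817 genes higher in R249C/R249C (3.45%) and 1281 lower (5.41%). Together these were 8.85%, where a random split of 6 untied libraries into 3 and 3 gives a share of 0.1. The median log2 fold change of R249C/R249C over WT/R249C was 0.01 over all genes tested. Limma voom also called 0 genes, with 714 at an unadjusted p under 0.05. DESeq2 called 117 of the 37180 genes with a count (47 higher, 70 lower), with 68 of them at 0 in all 3 libraries of a group, and 31 when it was given the genes that edgeR tested (10 higher, 21 lower).

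The intervals say how large a change these libraries could hide. Among the 10875 genes at a mean of at least 10 CPM the median half-width of the 95% interval was 0.96 on the log2 scale. The whole interval lay within a 2-fold change in either direction for 34.2% of these genes and within a 4-fold change for 81.9%. Over all genes tested the median half-width was 2.05, so for most genes of low count a 4-fold change in either direction was not excluded.

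Transcripts of Aire were read in all 6 libraries and did not separate the genotypes. Its level was 634, 318 and 858 CPM in R249C/R249C replicates 1 to 3 and 633, 174 and 769 CPM in WT/R249C replicates 1 to 3. Replicate 2 was the lowest library of each genotype, and the ranges overlapped. The log2 fold change was 0.26 (95% interval -1.21 to 1.72, edgeR unadjusted p = 0.683, adjusted p = 1). It was -0.05 without R249C/R249C replicate 3 and -0.15 without WT/R249C replicate 2. In WT/WT replicate 1 it was 312 CPM. A change of the protein's sequence need not change its transcript, and these counts hold nothing on the protein.

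Mature medullary cells are the cells that make Aire, and they carry class II molecules and the costimulators CD80 and CD86, through which T cells are tested. All 16 genes of the mature medullary list were tested and none passed. The fitted fold change was above 0 for 14 and below 0 for 2, with a median of 0.15, and 13 and 3 with upper-quartile factors or library totals in place of TMM. Cd80 stood at 40.9, 11.6 and 72.8 CPM in R249C/R249C and at 32.7, 4.47 and 31.1 CPM in WT/R249C, again lowest in replicate 2 of each genotype (log2 fold change 0.92, interval -1.30 to 3.15). Fscn1, an actin-bundling protein of these cells, was also lowest in replicate 2 of each genotype, with 400, 144 and 382 CPM against 328, 114 and 353 CPM.

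The costimulatory receptor gene Cd40 stood at 136, 51.2 and 166 CPM against 167, 43.7 and 114 CPM. In all of Aire, Cd80, Fscn1 and Cd40, replicate 2 was the lowest library within its genotype. H2-Aa and Ciita varied less between libraries than Aire did. H2-Aa, a class II chain, was at 2047, 1627 and 2249.8 CPM in R249C/R249C and at 2161, 1717 and 1464 CPM in WT/R249C, overlapping groups with a log2 fold change of 0.18 (interval -0.44 to 0.79). Cd74, the invariant chain that guides class II molecules, had a log2 fold change of 0.31 (interval -0.25 to 0.87), so a 2-fold change in either direction lay outside it. Ciita, the master regulator of class II transcription, was at 358, 319 and 311 CPM against 323, 270 and 415 CPM. Cd86 was the only list member whose groups did not overlap, at 10.01, 5.33 and 4.56 CPM against 4.02, 0.878 and 0 CPM (unadjusted p = 0.321).

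**Figure D2:**
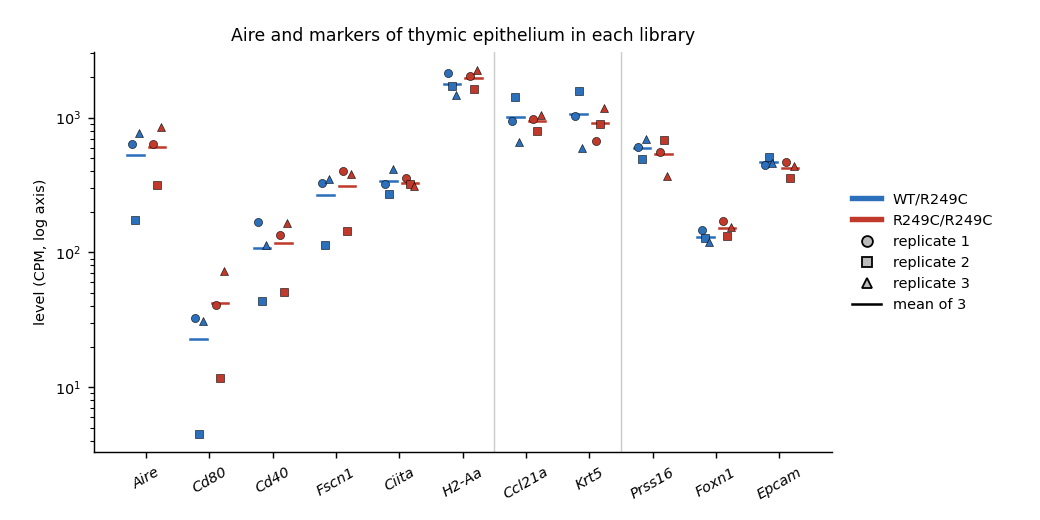
Level of 11 genes in CPM on a log axis in each library, with WT/R249C in blue and R249C/R249C in red, shapes for replicates and a short line at each mean of 3. From left to right stand Aire with mature medullary genes, immature medullary genes, and cortical or general epithelial genes. Aire, Cd80, Cd40 and Fscn1 are lowest in replicate 2 of both genotypes, and no gene separates red from blue.

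The other epithelial compartments overlapped as well. Immature medullary cells make the chemokine CCL21, and 5 of the 13 genes of their list were fitted higher and 8 lower, with a median of -0.07. Ccl21a was at 980.2, 796 and 1054 CPM in R249C/R249C and at 943, 1435 and 656 CPM in WT/R249C. Krt5, a basal keratin, stood at 668, 889.6 and 1180.1 CPM against 1029, 1573 and 590.3 CPM (log2 fold change -0.21, interval -1.25 to 0.82, and 0.20 without WT/R249C replicate 2). In WT/R249C both genes were highest in replicate 2, the library with the least Aire. R249C/R249C went otherwise: its replicate 2, also with the least Aire, had the lowest Ccl21a of that genotype and the middle Krt5.

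Cortical cells select T cells that can bind self MHC. Of their 13 listed genes 9 were fitted higher and 4 lower, with a median of 0.06, and the split was 7 and 6 with upper-quartile factors. Foxn1, the transcription factor on which thymic epithelium depends, was at 172, 132 and 154 CPM in R249C/R249C and at 147, 127 and 118 CPM in WT/R249C. Its log2 fold change of 0.26 had an interval of -0.26 to 0.77, which leaves out a 2-fold change in either direction. Psmb11, the thymoproteasome subunit of cortical cells, was at 57.6, 68.1 and 50.2 CPM against 93.5, 64.3 and 17.2 CPM, and Prss16, a cortical protease, at 553, 688 and 370 CPM against 601, 491 and 693 CPM. Epcam, used in the sort, was at 466, 355 and 438 CPM against 443, 507 and 458 CPM (log2 fold change -0.12, interval -0.59 to 0.34). Krt8 and Cdh1, further epithelial markers, had counts in every library.

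No gene passed in the list of Aire and proteins that bind it or act with it on chromatin. All 23 genes of this list, Aire and Fezf2 among them, were tested, 8 were fitted higher and 15 lower, the median was -0.10, and single log2 fold changes ran from -0.37 to 0.38, the last being that of Fezf2. Without WT/R249C replicate 3 that median was 0.085. For each of the 23 the interval left out a 4-fold change in either direction. Top2a, a topoisomerase of dividing cells, was at 36.6, 48.0 and 32.5 CPM in R249C/R249C and at 66.4, 29.0 and 59.9 CPM in WT/R249C (log2 fold change -0.37, interval -1.26 to 0.53). Crebbp, an acetyltransferase that binds Aire, was at 210, 281 and 267 CPM against 180, 195 and 256 CPM (0.31, interval -0.13 to 0.75). The groups of both genes overlapped.

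Top1, another topoisomerase, ran from 107 to 142 CPM in R249C/R249C and from 85.5 to 133 CPM in WT/R249C. Fezf2, a transcription factor for a separate group of tissue genes, and the deacetylase Sirt1 were named after their values were seen. Fezf2 was at 488, 192 and 362 CPM in R249C/R249C and at 366, 101 and 368 CPM in WT/R249C, and Sirt1 at 81.0, 24.8 and 80.4 CPM and at 75.9, 18.02 and 82.2 CPM. Both were lowest in replicate 2 of each genotype, as Aire was.

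Tissue-restricted genes, the class that Aire serves, were held by 16 lists with 226 different genes, of which 177 passed the filter on low counts and 12 had no count in any of the 6 libraries. None passed the test. At an unadjusted edgeR p under 0.05 were 4 of the 177, all fitted higher in R249C/R249C, beside 256 of all 23695 genes tested (1.08%). Of the 177, 98 were fitted higher in R249C/R249C and 79 lower, with a median of 0.09. This median was -0.05 without WT/R249C replicate 2 and 0.49 without WT/R249C replicate 1. Groups did not overlap in 10 genes higher in R249C/R249C (5.65%, beside 3.45% of all genes tested) and 3 lower (1.69%, beside 5.41%). The median half-width of the interval was 3.19, so large changes of single tissue genes were mostly not excluded.

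Tissue genes were patchy. For 72 of the 226 genes at least 50% of the CPM summed over the 6 libraries came from 1 library, and 97 had counts in all 6. The number with a count was 182, 150 and 155 in R249C/R249C replicates 1 to 3 and 203, 175 and 117 in WT/R249C replicates 1 to 3. WT/R249C held both the most and the fewest, as for all genes. The highest level of a gene lay in WT/R249C replicate 1 for 63 genes and in WT/R249C replicate 3 for 47, against 12 for WT/R249C replicate 2 and 19 to 39 for the R249C/R249C libraries.

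Genes known to need Aire gave the same picture at low counts. Of the 18 listed, 17 matched the table, 13 were tested, 7 were fitted higher and 6 lower, and the median was 0.42, with -0.17 without WT/R249C replicate 3 and 1.25 without WT/R249C replicate 1. Csn2, the milk protein beta-casein, was at 81.0, 75 and 80.4 CPM in R249C/R249C and at 220, 37.5 and 61.6 CPM in WT/R249C. The R249C/R249C libraries lay close together inside the WT/R249C range (log2 fold change -0.42, interval -2.07 to 1.22, and 0.76 without WT/R249C replicate 1). Bpifb1, a secreted protein of airway and salivary glands, was at 9.16, 6.05 and 26 CPM against 4.70, 3.02 and 7.32 CPM (1.5, interval -0.27 to 3.28). Its groups overlapped through a single pair of libraries.

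Ins2, which encodes an insulin and with it a main autoantigen of NOD diabetes, was at 0.436, 0.822 and 2.12 CPM in R249C/R249C and at 2.40, 0 and 0 CPM in WT/R249C. Mup1, a urinary protein made in liver, was at 1.05, 2.31 and 0.620 CPM against 0.956, 0.329 and 0.710 CPM. Csn1s2a, another casein, was at 6.45, 2.36 and 6.16 CPM against 12.9, 4.15 and 0.0495 CPM, the last from 3 counts. In 2 of these 3 genes WT/R249C replicate 1 held the highest level of all 6 libraries. The retinal gene Rbp3 had counts in WT/R249C replicate 1 only, at 0.823 CPM, and Ins1 had none in any library.

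Of the other islet genes, Gad1, whose product is closely related to the diabetes autoantigen GAD65, was at 20.1, 11.2 and 27.9 CPM in R249C/R249C and at 15.3, 4.44 and 74.3 CPM in WT/R249C. WT/R249C replicate 3 set its fold change, which was -0.56 with all libraries and 0.97 without it. The beta cell hormone gene Iapp was at 3.73, 5.08 and 4.96 CPM against 2.79, 1.43 and 4.66 CPM. Ptprn2, which encodes the autoantigen phogrin, did not overlap between groups, at 2.25, 0.986 and 2.65 CPM against 0.612, 0.802 and 0.0660 CPM (unadjusted p = 0.171). Of the 12 islet genes tested 9 were fitted higher, with a median of 0.32 that was -0.04 without R249C/R249C replicate 3 and 1.39 without WT/R249C replicate 1.

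Summed over each list, tissue levels did not separate the genotypes in any of the 16. In 13 of the 16 lists R249C/R249C replicate 2 was the lowest of its genotype, and in 13 of the 16 WT/R249C replicate 2 was the lowest of its own. These are the libraries with the least Aire in each genotype, and whether Aire sets these sums was not tested. The gut list summed to 583, 254 and 563 CPM in R249C/R249C and to 582, 151 and 734 CPM in WT/R249C. The liver list summed to 456, 256 and 326 CPM against 355, 130 and 443 CPM. In both lists WT/R249C replicate 2 was the lowest of the 6 libraries.

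The list of exocrine pancreas, salivary and lacrimal glands summed to 317, 115 and 256 CPM against 259, 75.2 and 394 CPM. Among its genes, the digestive enzyme gene Ctrb1 did not overlap, at 0.801, 0.213 and 1.60 CPM in R249C/R249C and 4.18, 1.66 and 5.85 CPM in WT/R249C (unadjusted p = 0.109). The median log2 fold change of its 10 tested genes was -1.10, with -1.75 without R249C/R249C replicate 2 and 0.11 without WT/R249C replicate 1. The ratio of mean sums, R249C/R249C over WT/R249C, had a median of 0.955 over the 16 lists. The WT/R249C libraries had the wider range in 11 of the 16.

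**Figure D3:**
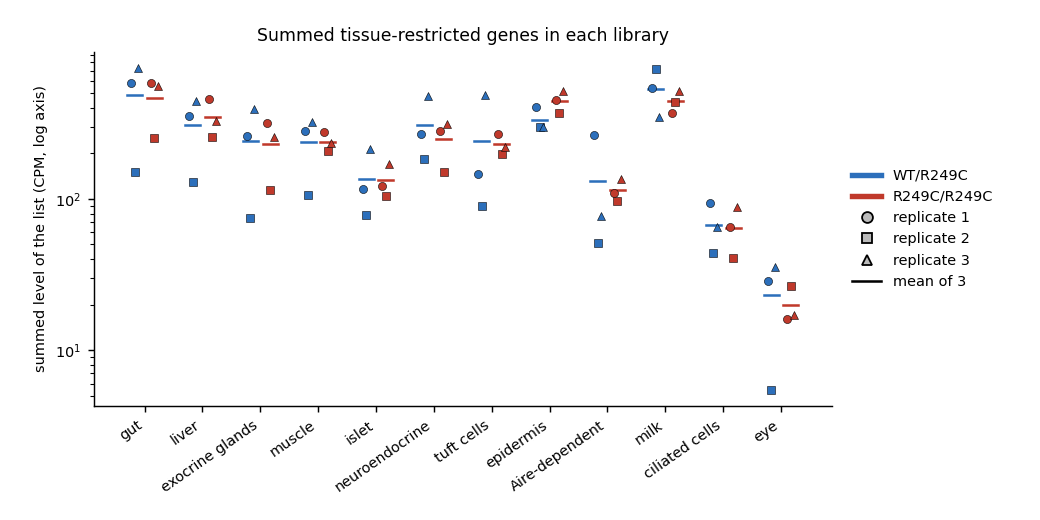
Summed CPM of 12 lists of tissue-restricted genes on a log axis in each library, with WT/R249C in blue, R249C/R249C in red, shapes for replicates and short lines at the means of 3. Replicate 2 of both genotypes (squares) is lowest within its group in most lists, and red and blue overlap in each. Lists share genes: among others, the Aire-dependent list holds Csn2 with the milk list, Ins2 with the islet list and Rbp3 with the eye list.

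The epidermal list had the most genes on the R249C/R249C side among the larger tissue lists. Of its 17 tested genes 14 were fitted higher, also under each other scaling, with a median of 0.55 and 0.25 to 0.82 when single libraries were left out. None passed, and sums overlapped, at 449, 369 and 515 CPM in R249C/R249C and 408, 298 and 297 CPM in WT/R249C. Krt10, a keratin of differentiating epidermis, was at 48.3, 33.4 and 60.7 CPM against 40.0, 27.1 and 26.3 CPM. Calml3, a calmodulin-like protein of keratinocytes, did not overlap, at 14.5, 19.4 and 36.4 CPM against 12.3, 10.2 and 11.1 CPM (log2 fold change 1.09, interval 0.01 to 2.16, unadjusted p = 0.0478, adjusted p = 1). WT/WT replicate 1 held 2.83 CPM of Calml3, below both groups. Grhl1, also on this list, is given with the genes of smallest p.

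Tuft cells are chemosensory epithelial cells, of which the thymic medulla holds a counterpart. Their list of 13 tested genes had 9 fitted higher and 4 lower, with a median of 0.39, and 8 and 5 with upper-quartile factors or library totals. The median was 0.05 without WT/R249C replicate 2 and 0.90 without WT/R249C replicate 3. Plcb2, the phospholipase of taste signalling, did not overlap, at 17.5, 11.8 and 13.6 CPM in R249C/R249C and 5.27, 4.61 and 7.84 CPM in WT/R249C (log2 fold change 1.34, interval 0.19 to 2.49, unadjusted p = 0.0292, adjusted p = 1). DESeq2 gave Plcb2 an adjusted p of 0.0148 over its own genes and 0.384 over those that edgeR tested. In WT/WT replicate 1 Plcb2 was at 29.2 CPM, above both groups. Chat, which makes acetylcholine, did not overlap either, at 3.75, 5.03 and 2.36 CPM against 1.59, 0.388 and 0 CPM (unadjusted p = 0.232). WT/WT replicate 1 held 0 CPM of Chat, as did WT/R249C replicate 3. Trpm5, the channel of the taste pathway, overlapped, at 18.9, 6.83 and 12.8 CPM against 11.4, 4.40 and 40.9 CPM. Pou2f3, the master regulator of tuft cells, overlapped too, at 15, 0.0677 and 7.23 CPM against 2.74, 2.57 and 0 CPM.

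Calb1, a calcium-binding protein on the list of genes linked to Fezf2, was the last tissue gene at an unadjusted p under 0.05. It was at 25.6, 20.3 and 34.6 CPM in R249C/R249C and at 17.8, 9.81 and 8.90 CPM in WT/R249C, groups that did not overlap (log2 fold change 1.16, interval 0.07 to 2.24, unadjusted p = 0.0399, adjusted p = 1). WT/WT replicate 1, at 25.6 CPM, lay within the R249C/R249C range.

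The 20 genes of smallest p at a mean of at least 10 CPM, 10 in each direction, did not overlap between groups. The test that ranked them chose them, so their values are a description. On the higher side Pkd1, the membrane protein polycystin-1, was at 30.6, 48.6 and 68.3 CPM in R249C/R249C and at 14.5, 19.98 and 18.9 CPM in WT/R249C (log2 fold change 1.5, interval 0.65 to 2.35, unadjusted p = 0.00496). Grhl1, a grainyhead transcription factor of epidermal differentiation, was at 62.2, 77.5 and 62.3 CPM against 29.8, 38.1 and 42.5 CPM (0.92, interval 0.39 to 1.44). Axin1, a scaffold of the complex that degrades beta-catenin, was at 22.9, 25.7 and 29.3 CPM against 11.3, 11.2 and 12.4 CPM (1.19, interval 0.47 to 1.92). All 3 had an edgeR adjusted p of 1, while DESeq2 gave adjusted p-values of 0.0119, 0.0114 and 3.71e-12, and 0.0470, 0.0826 and 7.00e-04 on the genes that edgeR tested.

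The WT/WT library held 11.4 CPM of Axin1, on the WT/R249C side, and 29.8 CPM of Pkd1 and 40.8 CPM of Grhl1, between the groups and within the WT/R249C range. Of the other 7 genes on this side, the kinase gene Pdpk1, whose product activates AKT, was at 60.8, 75.3 and 70.3 CPM against 45.5, 33.0 and 43.5 CPM. Nupr1, a stress-induced nuclear protein, was at 140, 176 and 209 CPM against 121, 65.8 and 93.2 CPM. Zbtb17 encodes the MYC partner MIZ1 and ran from 48.7 to 71.2 CPM in R249C/R249C and from 30.1 to 35.4 CPM in WT/R249C. Ptar1, related to prenyltransferase subunits, Cwc25, a splicing factor, Atl2, which fuses membranes of the endoplasmic reticulum, and Ctdspl2, a phosphatase, had log2 fold changes of 1.23, 1.13, 0.85 and 0.77. DESeq2 over its own genes also called Ptar1, Pdpk1 and Zbtb17, and no longer on the genes that edgeR tested.

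On the lower side Polr2b, the second largest subunit of RNA polymerase II, was at 71.3, 69.7 and 56.8 CPM in R249C/R249C and at 101, 111 and 133 CPM in WT/R249C (log2 fold change -0.75, interval -1.21 to -0.29, unadjusted p = 0.00702). Ggps1, which makes geranylgeranyl diphosphate for protein prenylation, was at 39.2, 48.2 and 47.9 CPM against 66.5, 75.7 and 121 CPM (-0.90, interval -1.49 to -0.31). Miga1, a protein of mitochondrial fusion, was at 12.4, 14.3 and 15.5 CPM against 28.5, 23.6 and 46.0 CPM (-1.16). For each of these 3 genes WT/R249C replicate 3 was the highest library.

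The same library was the highest for each of the other 7 genes on this side. Trappc2, of vesicle tethering, had a log2 fold change of -0.93, Mrpl50, of the mitochondrial ribosome, -0.67, and the nuclear import receptor Ipo8 -0.63. DESeq2 called Ipo8 over its own genes (adjusted p = 0.0459) and not over those that edgeR tested (adjusted p = 0.618). Kctd21, a cullin ligase adaptor, was at 3.65, 7.41 and 4.31 CPM against 12.1, 12.3 and 27.1 CPM (-1.68). Nfrkb, of the INO80 chromatin remodeller, had -0.89, Impdh1, of guanine nucleotide synthesis, -1.04, and Tbc1d20, which acts on a RAB GTPase, -0.72. WT/WT replicate 1 lay on the WT/R249C side for 5 of the 10 genes, on the R249C/R249C side for 1 and between the groups for 4. For the 10 higher genes it lay so for 4, 3 and 3. The split was different over all genes tested whose groups did not overlap. For the 1281 lower ones WT/WT replicate 1 lay so for 341, 824 and 116, and for the 817 higher ones for 429, 327 and 61.

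**Figure D4:**
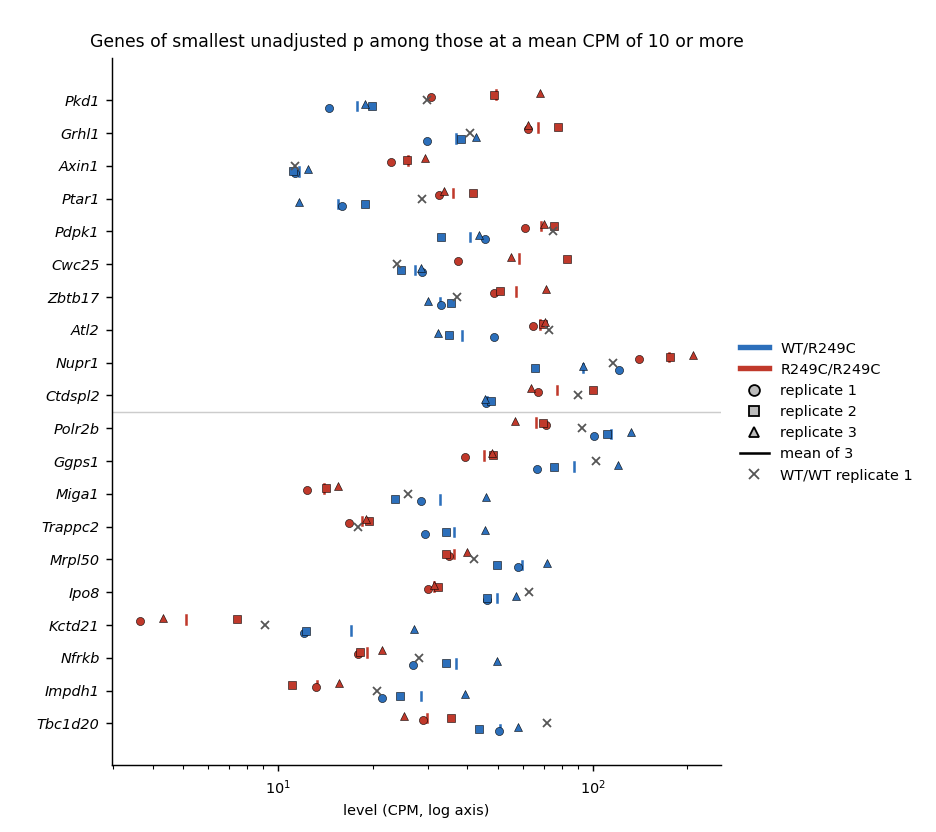
Level in CPM on a log axis of the 10 genes of smallest unadjusted p in each direction at a mean of at least 10 CPM, with WT/R249C in blue, R249C/R249C in red, shapes for replicates, short lines at the means of 3 and a cross for WT/WT replicate 1. Groups do not overlap in any of the 20, and the cross falls on either side.

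Among genes of any level, the smallest p-values belonged mostly to genes read in only 1 genotype. Of the genes tested, 24 had counts in all 3 R249C/R249C libraries and in no WT/R249C library, and 35 had the reverse. A gene of this kind passes the filter through the group where it is high, and folds are given as bounds against 3 counts over the group at 0. Akap14, an anchor of protein kinase A in cilia, was at 1.52, 2.53 and 1.38 CPM in R249C/R249C and without a count in WT/R249C, at least 195-fold higher. Prrt2, a presynaptic protein, was at 0.587, 0.416 and 0.457 CPM while WT/R249C had none, at least 52.5-fold higher. Platr3, a noncoding RNA, Tmem249 and Pate2, of the PATE family expressed in epididymis, were at least 30.3-fold, 73.4-fold and 53.2-fold higher. None of these 5 passed by edgeR. DESeq2 over its own genes called Akap14, Prrt2 and Tmem249 (adjusted p = 1.88e-07, 0.00535 and 0.0104), and of these only Akap14 over the genes that edgeR tested (adjusted p = 0.00167).

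Amy1, which encodes an amylase, was at 1.13, 1.76 and 3.92 CPM in R249C/R249C and likewise without a count in WT/R249C, at least 233-fold higher. It has near-identical copies among the amylase genes, so its count is uncertain, and WT/WT replicate 1 held 4.16 CPM. In the other direction the glutamate receptor gene Gria1 was at 2.22, 0.937 and 3.01 CPM in WT/R249C and 0 in R249C/R249C, at least 195-fold lower. Dnaaf1, which helps to assemble dynein arms of cilia, was at 0.408, 1.59 and 3.62 CPM against 0, at least 149-fold lower. The genes Akap14, higher, and Dnaaf1, lower, both serve cilia, and the ciliated cell list as a whole had 8 of 14 genes fitted higher, with a median of 0.27. Leaving out single libraries moved it from -0.09, without R249C/R249C replicate 3, to 1.60, without WT/R249C replicate 1, and it was also below 0 without WT/R249C replicate 3.

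The 6 further genes of small p were all at 0 in R249C/R249C. Myrfl, Ly6g5b, P2ry10, Slc38a11, Tas2r109 and Usp17lc were at least 127-fold, 184-fold, 314-fold, 209-fold, 47.3-fold and 80.8-fold lower. P2ry10 is a receptor of lymphocytes, Slc38a11 an amino acid transporter and Tas2r109 a bitter taste receptor. DESeq2 over its own genes called these 6 as well as Amy1, Gria1 and Dnaaf1, which edgeR did not, and over the genes that edgeR tested it called the same ones without Tas2r109 and Usp17lc. Those 2 genes belong to families of similar copies, so their counts are uncertain. WT/WT replicate 1 had no count for Myrfl, Gria1, Dnaaf1, P2ry10 and Slc38a11, as in R249C/R249C, nor for Akap14, Prrt2, Tmem249 and Pate2, as in WT/R249C. It held counts for 9 of the 24 genes seen only in R249C/R249C and 10 of the 35 seen only in WT/R249C.

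Of the ranked genes of any level that had counts in both genotypes, Has1, Acot6 and Lcn2 were below a mean of 10 CPM and so are not among those given above. Has1, which makes hyaluronan, was at 9.44, 22.4 and 7.47 CPM in R249C/R249C and at 2.50, 2.71 and 1.70 CPM in WT/R249C (log2 fold change 2.53, interval 0.85 to 4.20). Acot6, an acyl-CoA thioesterase, was at 0.409, 1.04 and 1.11 CPM against 4.09, 12.8 and 19.8 CPM (-3.78, interval -5.91 to -1.65). Lcn2, an iron-siderophore binding protein of epithelium and neutrophils, was at 3.58, 5.37 and 3.92 CPM against 11.3, 18.5 and 16.4 CPM (-1.80, interval -2.99 to -0.62). All 3 did not overlap between groups and had an edgeR adjusted p of 1. DESeq2 gave adjusted p-values of 0.00535, 3.75e-04 and 7.19e-04, and 0.0463, 0.00464 and 0.0327 on the genes that edgeR tested.

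Each list of markers of other cells had counts in every library, and the summed level of each list overlapped between genotypes. In bulk RNA fewer cells of a type and less RNA per cell cannot be told apart. Fibroblast genes were the group with the largest median: 11 of 12 had the higher fit in R249C/R249C, their median was 1.30, and it was 0.52 without R249C/R249C replicate 2 and 1.87 without WT/R249C replicate 2. None passed. Col1a1, a collagen chain, was at 74.5, 308 and 57.5 CPM in R249C/R249C and at 38.0, 85.9 and 25.0 CPM in WT/R249C (log2 fold change 1.57, interval -0.41 to 3.55). Summed fibroblast levels ran from 1367 to 2592 CPM in R249C/R249C with 12 of 12 genes above 0, and from 894 to 2111 CPM in WT/R249C with 9 to 12 above 0. Has1 was highest in R249C/R249C replicate 2, the library with the most fibroblast RNA, and the part of these cells in its level was not tested.

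Endothelial genes summed to 215, 493 and 123.1 CPM in R249C/R249C and to 222, 766 and 151 CPM in WT/R249C. Replicate 2 of each genotype, with the least Aire, held the most endothelial RNA. Thymocyte genes summed to 126 to 207 CPM in R249C/R249C and 155 to 254 CPM in WT/R249C, with 13 to 16 and 11 to 15 of 16 genes above 0. B lineage genes summed to 308 to 604 CPM and 160 to 621 CPM. Igkc, which encodes the constant part of kappa antibody chains, stood at 166, 246 and 341 CPM against 81.3, 72.5 and 283 CPM (log2 fold change 0.86, interval -0.50 to 2.23). Ms4a1, a defining B cell gene, was at 0 in all 3 R249C/R249C libraries and in WT/R249C replicate 3. Myeloid genes summed to 90.4 to 264 CPM and 81.1 to 234 CPM.

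Further lists stayed close to the median of all genes. Interferon-stimulated genes had 4 of 14 fitted higher, with a median of -0.12, and for all 14 the interval left out a 4-fold change either way. MHC class I presentation had 9 of 11 fitted higher, with a median of 0.08, 7 of 11 with upper-quartile factors or library totals, and all 11 intervals left out a 4-fold change. Cell cycle genes had 11 of 20 fitted higher, with a median of 0.04 that was -0.04 with upper-quartile factors and -0.03 with library totals. Mki67, a marker of dividing cells, was at 39.5, 30.4 and 32.8 CPM in R249C/R249C and at 42.8, 15.1 and 18.4 CPM in WT/R249C.

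Genes of the RANK, CD40 and NF-kB pathway, which drives medullary maturation, had 8 of 12 fitted higher, with a median of 0.07, and 6 of 12 with upper-quartile factors or library totals. The RANK gene Tnfrsf11a was at 90.1, 14.8 and 68.2 CPM in R249C/R249C and at 62.7, 19.2 and 109 CPM in WT/R249C, lowest in replicate 2 of each genotype. Every library held both Xist, transcribed from the inactive X chromosome of females, at 68.6 to 222 CPM, and the Y-linked gene Ddx3y, at 18.8 to 145 CPM. Transcripts typical of both sexes were thus read in each library, and how many mice gave them was not tested. The Y-linked genes did not move together. WT/R249C replicate 3 was the highest library for Ddx3y and for Uty (74.7 CPM), and the lowest for Kdm5d (0.231 CPM).

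**Figure D5:**
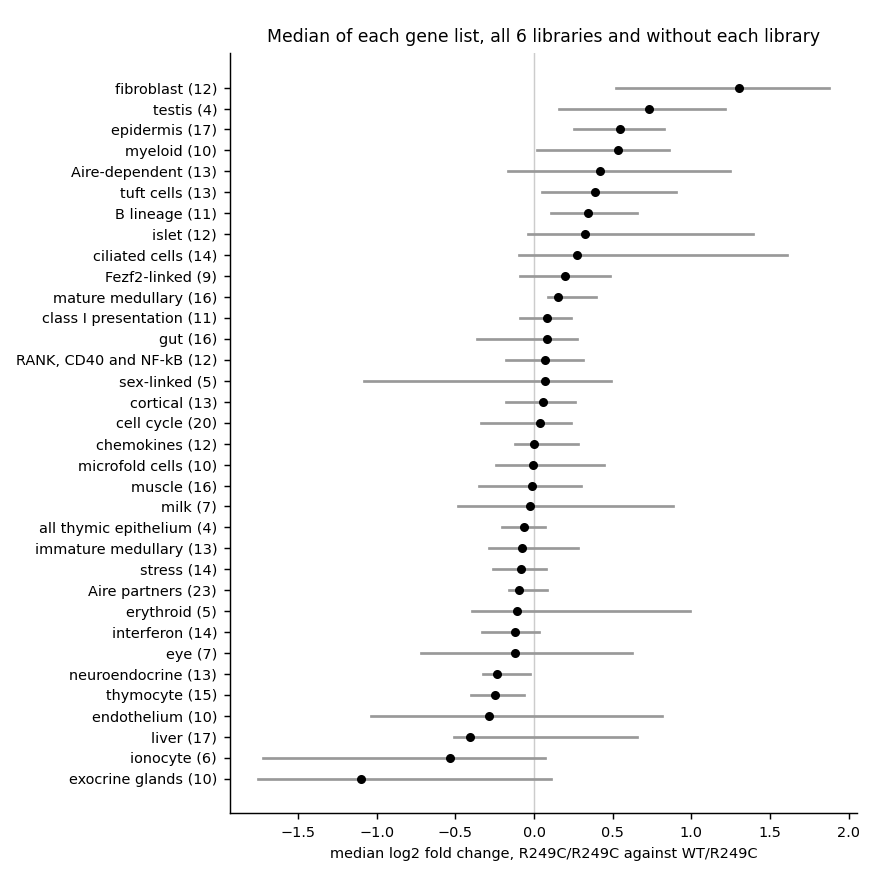
Median log2 fold change of R249C/R249C over WT/R249C for each of the 34 gene lists (points, with the number of genes tested in brackets) and its range when each of the 6 libraries is left out in turn (lines). Most lines cross 0: the median kept its sign without each library in 9 lists. Among them fibroblast, epidermis, tuft cells and mature medullary lay above 0. Neuroendocrine (median -0.24, -0.32 to -0.02 without single libraries) and thymocyte (-0.25, -0.40 to -0.06) lay below 0.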

How the data were processed

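The deposited table holds whole-number read counts per gene, not normalized. Per the submitters' processing notes, the authors used FastQC, HISAT2 and StringTie with build mm39. Versions, the annotation and how counts were taken from alignments are not given in the sources used here. All 11 libraries have a column, and the columns of the 7 batch A libraries carry the word trimmed. Identifiers were matched to GENCODE vM21 names, which gave symbols to 52073 of 56691 genes. WT/R249C replicates 4 and 5, of batch B, have labels that contradict each other: the title gives WT/R249C and the genotype field R249C/R249C. They were used only in the 11-library alternative, as WT/R249C by title, so its WT/R249C group is uncertain.

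The main test was edgeR's quasi-likelihood test (version 4.0.16 in R 4.3.3, robust, TMM, filterByExpr). It was two-sided, p-values were adjusted by Benjamini-Hochberg across all tested genes, and 0.05 was the threshold. Alternatives were DESeq2 1.42.0, limma voom 3.58.1 with quality weights, other scalings and filters, a replicate block, 7 and 11 libraries, and leaving out each library. DESeq2 on the genes that edgeR tested was added after seeing the data. The edgeR step was also run on simulated counts, and how many of the changes put in it recovered is not reported here. CPM is a gene's count over the library's total. Thinned numbers of genes are means of 10 draws. Reads carry no molecular identifiers, so bounds cover counting error only. Lists are described by counts and medians with no set test, and 461 of their 464 entries matched.

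The comparison, the 34 gene lists and the rule for names were chosen with earlier results of these data known. Named genes are Aire, the 12 of smallest unadjusted p in each direction, the 10 in each direction among genes at a mean of at least 10 CPM, and from each list its first members (up to 8 or 3) and the 3 of smallest p. Gm, Rik, clone and bare identifiers were left out of the ranked names. Values of some list members are not reported here.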

Additional observations from a re-analysis of the deposited data

How the results depend on the processing

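The edgeR test called 0 genes under every alternative in which it was run, and limma voom, run once, also 0. DESeq2 called 117, and 31 on the genes that edgeR tested. The number of genes at an unadjusted p under 0.05 was 256, against 1350 with DESeq2, 583 with DESeq2 on edgeR's genes, 714 with limma voom, 550 with all 11 libraries and batch, 403 with all 7 batch A libraries, 454 with no filter, 98 at a mean CPM of at least 10, and 344 to 837 without single libraries. The highest of these, 837, came without WT/R249C replicate 3, followed by 598 without WT/R249C replicate 1. Genes whose groups do not overlap numbered 2098, and 1349 and 618 at a mean CPM of at least 1 and 10. Fewer genes were tested there. The fold change of Aire ran from -0.15 to 0.58 without single libraries, and that of Krt5 from -0.54 to 0.20, Epcam from -0.22 to 0.0051, Csn2 from -0.83 to 0.76 and Gad1 from -1.06 to 0.97. Gad1 was 0.99 with limma voom. Of the 34 list medians, 29 kept their sign under all 4 scalings and 9 without each library. The difference in genes detected ran from -3102 to 892. The cause of these shifts was not tested.

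The labels give both genotypes replicates 1 to 3 without saying what a number shares. Deviations of same-numbered libraries correlated at 0.14, 0.07 and 0.04, which does not establish pairing, although each library correlated best with its own number. With the replicate block edgeR again called no gene (0), the unadjusted count was 185, and it gave 0.046 for Csn2 and 0.16 for Gad1.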
